A study of Danio rerio with 4 samples.

Results

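The lymphocyte identity genes of the injured zebrafish ventricle are a set of 10 symbols whose products define T cells, B cells and their precursors. They were taken by symbol from the gene column of the deposited table, and 6 of the 10 had a row among the 17221 genes: *lck*, *zap70* and *cd4-1* of T cells, *cd79a* and *cd79b* of B cells, and *ikzf1* of the lymphoid lineage. *cd8a*, *pax5*, *rag1* and *nkl.2* were not analysed here. The samples were ventricles of adult AB-strain zebrafish, either Tg(hsp70l:sflt4) or WT. In the transgene the heat-shock promoter hsp70l controls sflt4, which encodes a secreted Flt4 ectodomain that can bind Vegfc away from its receptor. Fish of both groups had a cryoinjury, a freezing lesion of the heart wall, and a heat shock at 39 °C, and the tissue was taken 24 h after the injury. Each group had 2 libraries, each from a pool of 3 ventricles, so an individual fish cannot be seen in the values. The promoter is heat-inducible rather than specific to a cell type. The stated purpose was to find genes under Vegfc control in the regenerating heart.

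Lymphocytes recognise antigen through receptors that cannot signal alone. In T cells the kinase Lck, held by the co-receptors CD4 or CD8, phosphorylates the chains around the T cell receptor, and the kinase Zap70 then binds them and passes the signal on. In B cells the membrane immunoglobulin signals through the CD79a and CD79b chains, while Ikaros, the product of *ikzf1*, is a zinc-finger transcription factor needed for lymphoid development. In zebrafish *cd4-1* is also expressed by macrophages, *lck* and *zap70* by natural killer-like cells, and *ikzf1* by other blood cells and progenitors. Lymphatic vessels, whose growth depends on Vegfc and Flt4, are a route by which lymphocytes leave tissue.

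Gene-assigned reads, estimated from the table, came to about 33100000 and 29000000 in Tg(hsp70l:sflt4) and 34800000 and 34300000 in WT. Values below are normalized read counts, that is, reads divided by a size factor for each library and rounded. The tissue was heart muscle by its markers, with the cardiac light chain gene *myl7* at 204313 and 245157 in Tg(hsp70l:sflt4) and 335222 and 316610 in WT. Reads of the endogenous receptor gene *flt4* gave 504 and 538 in Tg(hsp70l:sflt4) and 618 and 515 in WT (limma adjusted p = 0.823). Without the transgene's sequence it is unknown whether its transcript is counted in *flt4*, so this value is no check of the labels. The endogenous heat-shock gene *hsp70l* had 1191 and 647 in Tg(hsp70l:sflt4) and 461 and 4264 in WT, where WT replicate 2 stood apart from the other 3 libraries.

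No lymphocyte identity gene passed the test between Tg(hsp70l:sflt4) and WT. Of the 6 genes, limma called 0 at an adjusted p under 0.05 and 0 had an unadjusted p under 0.05, and limma-voom gave the same 2 counts. Over all 17071 genes tested limma called 0 (0.0%), while 11.0% had an unadjusted p under 0.05. None of the 6 was called with 1 library left out either, where limma called 1.27% of all genes without WT replicate 1, 0.428% without WT replicate 2 and 0.0% without either transgenic library. The means of 4 genes were higher and those of 2 were lower in Tg(hsp70l:sflt4). Their median log2 difference was 0.07, against -0.01 over all genes tested. The groups were separate for 1 gene in each direction, *zap70* higher and *cd79a* lower, against 21.8% of all tested genes higher and 21.4% lower. In bulk tissue, fewer cells of a type and less RNA per cell cannot be told apart.

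A second feature of these genes was how few reads they had. *lck*, *zap70*, *cd4-1*, *cd79a* and *cd79b* averaged between 13.5 and 21 normalized reads over the 4 libraries, close to the minimum mean of 10 for testing, and *ikzf1* averaged 254.5. Their standard errors on the log2 scale ran from 0.46 to 0.65 for the 5 low-count genes, where the median over all genes tested was 0.23 and that of tested genes with a mean under 25 was 0.60. All 6 genes passed the filter on low values, *zap70* with a WT mean under the minimum. Levels are not ranked between genes here, because transcript lengths were not used.

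**Figure D1:**
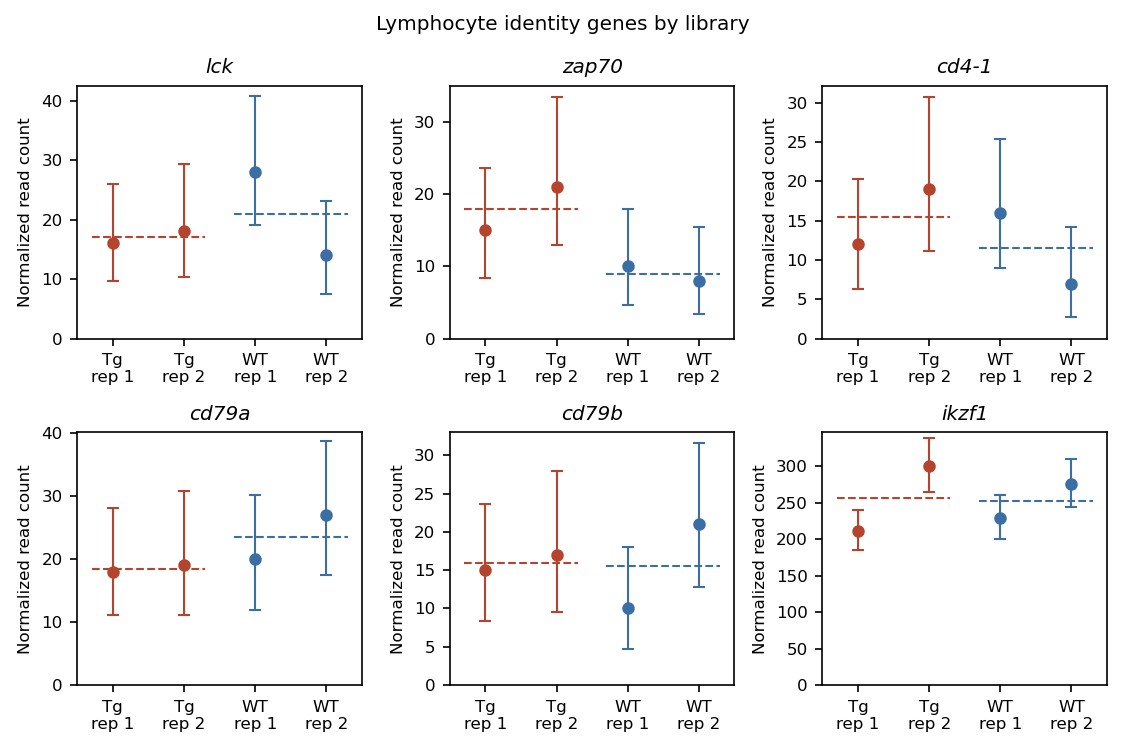
Normalized read counts of the 6 lymphocyte identity genes in each library, with Tg standing for Tg(hsp70l:sflt4). Points are single libraries, bars are 95% Poisson intervals for counting error alone, and dashed lines are group means. The 2 groups are separate for *zap70* (15 and 21 against 10 and 8) and *cd79a* (18 and 19 against 20 and 27), and overlap for the other 4 genes.

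Among the T cell genes, *zap70* (chromosome 8, 20393250 to 20414364, plus strand, danRer11), the kinase recruited to the activated receptor, had 15 and 21 normalized reads in Tg(hsp70l:sflt4) and 10 and 8 in WT. Both transgenic libraries lay above both WT libraries. The means were 18 ± 4.24 and 9.0 ± 1.41 (SD, n = 2 each). On the log2(value + 1) scale the difference was 0.92 (SE 0.56), a 1.89-fold higher value. The 95% interval of limma ran from -0.46 to 2.29, and the adjusted p was 0.582. The summed reads, 35 in Tg(hsp70l:sflt4) and 18 in WT, gave a ratio of 2.0 with a counting interval of 1.1 to 3.75. That interval covers counting error alone and leaves out the spread between pools. An exact permutation test of 2 libraries against 2 gave a two-sided p of 0.3333, which is the smallest this design allows. With a WT mean under the minimum for testing, *zap70* passed the filter through the transgenic libraries. Its p-values, intervals and separation are therefore a description.

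*lck* (chromosome 17, 25344734 to 25382376, minus strand), the kinase that starts the receptor signal, had 16 and 18 normalized reads in Tg(hsp70l:sflt4) and 28 and 14 in WT. Both transgenic values fell between the WT values. The means were 17 ± 1.41 and 21 ± 9.90 (SD, n = 2 each). Limma put the log2 difference at -0.21 with an SE of 0.54 (adjusted p = 0.910). The difference between the 2 WT libraries alone, 29 against 14 reads, had a counting interval of 1.05 to 4.22 for its ratio. It narrowly left out a ratio of 1, as 1 of 12 such intervals taken without adjustment for their number.

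*cd4-1* (chromosome 16, 11911897 to 11946139, minus strand), the co-receptor gene of helper T cells, had 12 and 19 normalized reads in Tg(hsp70l:sflt4) and 16 and 7 in WT. The groups overlapped, and the lowest of the 4 values was in WT replicate 2. The means were 15.5 ± 4.95 and 11.5 ± 6.36 (SD, n = 2 each), and limma put the log2 difference at 0.47 with an SE of 0.65 (adjusted p = 0.816). The limma 95% interval, from -1.13 to 2.07, spans a 4.19-fold higher value and a 2.19-fold lower one.

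The B cell genes went apart by small amounts. *cd79a* (chromosome 16, 26132951 to 26140768, minus strand) had 18 and 19 normalized reads in Tg(hsp70l:sflt4) and 20 and 27 in WT. Both transgenic libraries lay below both WT libraries, the nearest by a single normalized read. Before scaling, Tg(hsp70l:sflt4) replicate 1 and WT replicate 1 each had an estimated 20 reads, so this separation depends on the size factors. The means were 18.5 ± 0.71 and 23.5 ± 4.95 (SD, n = 2 each), and by limma the log2 difference was -0.31 with an SE of 0.46 (adjusted p = 0.823). Its partner *cd79b* (chromosome 12, 4900981 to 4906924, plus strand) had 15 and 17 in Tg(hsp70l:sflt4) and 10 and 21 in WT. Here the WT libraries were the lowest and the highest of the 4. The means were 16 ± 1.41 and 15.5 ± 7.78 (SD, n = 2 each), and by limma the log2 difference was 0.13 with an SE of 0.58 (adjusted p = 0.953).

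*ikzf1* (chromosome 13, 15957508 to 15994472, minus strand) was the best measured of the 6. It had 212 and 301 normalized reads in Tg(hsp70l:sflt4) and 229 and 276 in WT. The transgenic libraries were the lowest and the highest of the 4, and the WT values fell between them. The means were 256.5 ± 62.9 and 252.5 ± 33.23 (SD, n = 2 each), and limma put the log2 difference at 0.01 with an SE of 0.25 (adjusted p = 0.994). The limma 95% interval ran from -0.61 to 0.63, narrower than for the other 5 genes. The counting intervals for replicate 1 over replicate 2 left out a ratio of 1 in both groups. They were 0.59 to 0.84 in Tg(hsp70l:sflt4) and, narrowly, 0.70 to 0.99 in WT.

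**Figure D2:**
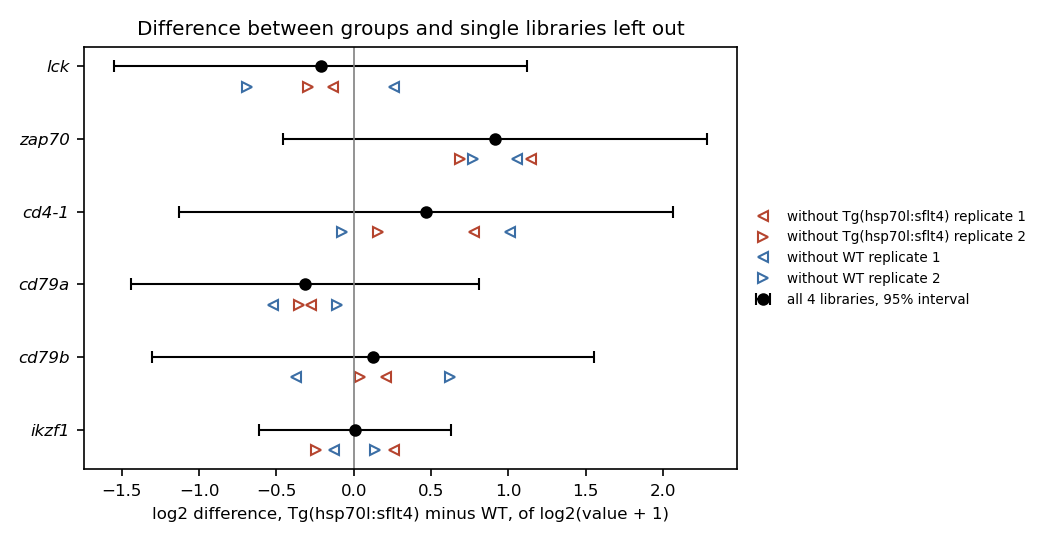
Difference on the log2(value + 1) scale, Tg(hsp70l:sflt4) minus WT, for each gene. Black points and bars are the limma estimate and 95% interval with all 4 libraries, and every bar crosses 0; open triangles are the estimates with 1 library left out. The triangles of *zap70* (0.69 to 1.14) and *cd79a* (-0.52 to -0.11) stay on 1 side of 0, and those of *lck*, *cd4-1*, *cd79b* and *ikzf1* lie on both sides. Where the groups are separate, as for *zap70* and *cd79a*, no left-out library can turn the sign, so this adds nothing to the separation. *zap70* passed the filter through the transgenic libraries.

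The T cell and B cell identity genes placed the WT libraries in opposite order. WT replicate 2 was the lowest library for *lck*, *zap70* and *cd4-1* and the highest for *cd79a* and *cd79b*. Among these genes only *lck* had a counting interval between the WT libraries that left out a ratio of 1, and narrowly. Genes of the wider lists did not all keep this order, and *blk* and *cd28*, given below, went against it. The 3 T cell genes summed to 43 and 58 in Tg(hsp70l:sflt4) and to 54 and 29 in WT. The 2 B cell genes summed to 33 and 36 in Tg(hsp70l:sflt4) and to 30 and 48 in WT. With both sums the WT libraries lay further apart than the transgenic ones, and each group of libraries overlapped the other. All 5 together summed to 76 and 94 in Tg(hsp70l:sflt4) and 84 and 77 in WT, or 85 ± 12.7 and 80.5 ± 4.95 (SD, n = 2 each). Of the 12 pairs of replicates, 1 pair for each of the 6 genes in each group, 9 had a counting interval that held a ratio of 1, so for most pairs the spread was within what so few reads give.

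The wider T cell list had 35 symbols, of which 12 had a row that was tested. Of these 6 had higher and 6 lower means in Tg(hsp70l:sflt4), the median log2 difference was 0.10, and limma called 0 over all genes tested. Unadjusted p-values under 0.05 were found for 3 higher and 2 lower genes, against 5.57% and 5.45% of all genes tested, and limma-voom also called 0 of the list. Such counts moved with the library left out. Leaving out Tg(hsp70l:sflt4) replicate 1 gave the list a median of 0.20, and leaving out Tg(hsp70l:sflt4) replicate 2 gave 0.0009. *thy1*, a surface glycoprotein gene used as a T cell marker in mice and also found on other cells, had 1207 and 1279 in Tg(hsp70l:sflt4) and 694 and 548 in WT, a difference of 1.01 log2 units by limma (SE 0.17, adjusted p = 0.272). *ptpn22*, for a phosphatase that restrains receptor signaling, had 876 and 1073 in Tg(hsp70l:sflt4) and 636 and 642 in WT (adjusted p = 0.338 by limma). The adaptor gene *lcp2a* had 1153 and 1341 against 807 and 1075, and its paralogue *lcp2b* had 16 and 14 in Tg(hsp70l:sflt4) against 41 and 28 in WT. Values did not overlap for either paralogue, and they lay in opposite directions. *cd28*, the co-stimulatory receptor of T cells, had 9 and 17 in Tg(hsp70l:sflt4) and 30 and 103 in WT, a difference of -2.08 log2 units by limma (SE 0.70, adjusted p = 0.397). The kinase gene *itk*, which acts after *lck* and *zap70*, had 10 and 8 in Tg(hsp70l:sflt4) and 24 and 5 in WT, with the WT libraries at both ends. Leaving out WT replicate 2 gave the list a median of -0.11, and leaving out WT replicate 1 gave 0.43. Without WT replicate 1, which leaves a single WT library, the log2 difference of *thy1* was 1.1795.

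The summed T cell list was 3924 and 4549 in Tg(hsp70l:sflt4) and 2869 and 3225 in WT. Its groups did not overlap (exact permutation p = 0.3333, two-sided). The sum follows its most abundant genes, led by *lcp2a* at 30.0% and then *thy1* and *ptpn22*, and does not stand for the list. Gene by gene the groups were separate for 5 higher and 4 lower of 12, against 21.8% and 21.4% of all genes tested. The lower genes include *cd28* and *lcp2b*, given above. Of the separate genes, *zap70* passed the filter through the transgenic libraries and the lower *sla2* through the WT libraries. The sum of the 3 identity genes of the list overlapped between the groups, as given above. The list includes *cd3eap*, which carries the name of the CD3 complex but in other vertebrates encodes a subunit of RNA polymerase I, and it had 353 and 372 in Tg(hsp70l:sflt4) and 399 and 579 in WT.

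Of 32 B cell symbols 18 were tested, 12 with higher and 6 with lower means in Tg(hsp70l:sflt4), at a median log2 difference of 0.22. Limma called 0 of them, and 4 higher and 2 lower genes had an unadjusted p under 0.05, against 5.57% and 5.45% of all genes tested. The 4 higher genes include *ms4a17a.1*, given below, which passed the filter only through the transgenic libraries. Leaving out WT replicate 1 gave a median of 0.03, and leaving out WT replicate 2 gave 0.46. Without Tg(hsp70l:sflt4) replicate 2 fewer higher genes had an unadjusted p under 0.05. *blnk*, the adaptor gene of the B cell receptor that macrophages also use, had 1768 and 1965 in Tg(hsp70l:sflt4) and 930 and 1347 in WT (log2 difference 0.74, SE 0.21, limma adjusted p = 0.357). The Src-family kinase gene *lyn* lay the other way, with 1256 and 1309 in Tg(hsp70l:sflt4) and 1722 and 1861 in WT (limma adjusted p = 0.356). *blk*, a kinase of the same family used by B cells, had 35 and 37 in Tg(hsp70l:sflt4) and 72 and 35 in WT, where 1 WT library stood alone. The tetraspanin gene *cd81a*, expressed in many cell types and 69.2% of the list's summed reads, had 40056 and 37537 in Tg(hsp70l:sflt4) and 39754 and 34696 in WT.

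*ms4a17a.1*, from a tandemly repeated family of membrane protein genes, had 44 and 73 in Tg(hsp70l:sflt4) and 1 and 1 in WT. The summed reads of 113 in Tg(hsp70l:sflt4) and 2 in WT gave a ratio of 58.0 with a counting interval of 15.7 to 484.9. Its limma adjusted p was 0.184. With 1 normalized read in each WT library, it passed the minimum mean of 10 only through the transgenic libraries. The filter thus admitted it because of this difference, and the p-value and ratio are a description. The family has close copies that may trade reads, which makes the value uncertain.

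Immunoglobulin rows were uneven between the WT libraries, and all 4 rows given here were higher in WT replicate 1 than in WT replicate 2. The row named *ighv1-4* in the table spans the heavy-chain locus and is named *ighm*, for the mu heavy chain, in the reference names. It had 113 and 148 normalized reads in Tg(hsp70l:sflt4) and 1094 and 157 in WT. WT replicate 2 lay close to the transgenic libraries, and WT replicate 1 stood far above the other 3. The means were 130.5 ± 24.7 and 625.5 ± 663 (SD, n = 2 each), and limma put the log2 difference at -1.67 with an SE of 0.85 (adjusted p = 0.529). Without WT replicate 2 the log2 difference was -3.07, and without WT replicate 1 it was -0.28, each with a single WT library left.

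All 4 immunoglobulin rows were singled out after their values were seen. The light-chain row *igic1s1* had 4 and 6 in Tg(hsp70l:sflt4) and 62 and 10 in WT, and *ighv9-4* had 1 and 0 in Tg(hsp70l:sflt4) and 46 and 0 in WT. In both rows WT replicate 1 held the highest value, and both passed the filter on low values through the WT libraries alone. The delta heavy-chain row *ighd* had 19 and 10 in Tg(hsp70l:sflt4) and 26 and 18 in WT, and its groups overlapped. WT replicate 1, the library with the most immunoglobulin reads, had the lowest *cd79b* value of the 4 libraries (10) and a *cd79a* value of 20. Immunoglobulin rows share similar and overlapping sequence, so their values are uncertain.

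**Figure D3:**
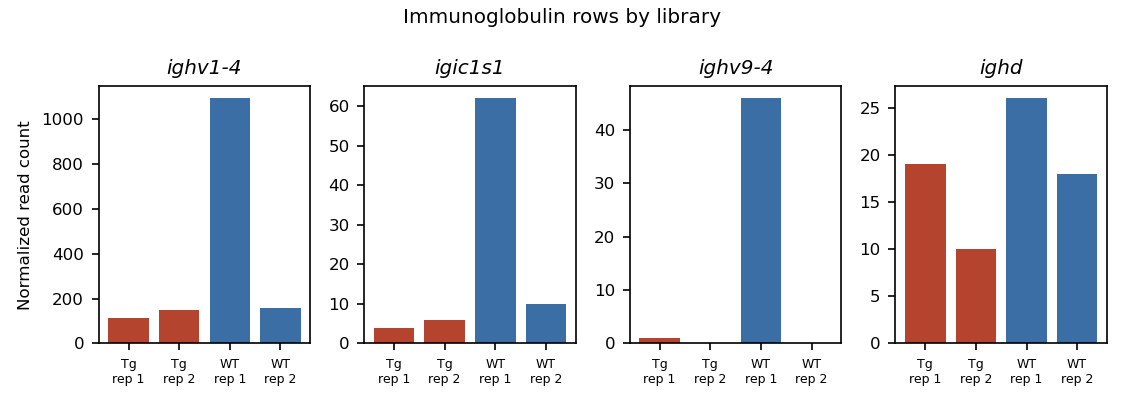
Normalized read counts of 4 immunoglobulin rows in each library, with bars for single libraries and Tg standing for Tg(hsp70l:sflt4). WT replicate 1 is the highest bar in every panel, at 1094 for *ighv1-4*, 62 for *igic1s1*, 46 for *ighv9-4* and 26 for *ighd*.

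Plasma cell genes gave few rows, 4 of 10 symbols. *irf4a*, a transcription factor gene of activated B cells and plasma cells, had 52 and 26 in Tg(hsp70l:sflt4) and 73 and 181 in WT (log2 difference -1.62, SE 0.56, limma adjusted p = 0.406). *prdm1a*, for the plasma cell repressor Blimp1 that other tissues also use, had 157 and 156 in Tg(hsp70l:sflt4) and 113 and 136 in WT. *xbp1*, a secretory pathway factor of many cell types, had 8820 and 9155 against 7148 and 7883 in WT. The elongation factor gene *ell2* had 1694 and 1451 in Tg(hsp70l:sflt4) and 1593 and 1745 in WT, and its groups overlapped. The groups were separate for 2 higher genes and 1 lower gene of the 4, against 21.8% and 21.4% of all genes tested.

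Cytotoxic and natural killer genes split evenly. Of 35 symbols 12 were tested, 6 with higher and 6 with lower means, at a median log2 difference of -0.01, and limma gave 0 an unadjusted p under 0.05. Leaving out WT replicate 1 gave a median of 0.40, and leaving out WT replicate 2 gave -0.16. *nkl.1*, an NK-lysin gene for an antimicrobial peptide of killer cells, had 47 and 51 in Tg(hsp70l:sflt4) and 32 and 30 in WT, without overlap (log2 difference 0.64, SE 0.35, limma adjusted p = 0.546). The reference names give this row as *nkl.2*, and under the table's own symbols it is not one of the 10 identity genes. The immune-type receptor gene *nitr4a* had 17 and 16 in Tg(hsp70l:sflt4) and 12 and 4 in WT. With a WT mean of 8.0, under the minimum for testing, *nitr4a* passed the filter through the transgenic libraries, so its values are a description. The granzyme copies went apart, with *gzm3* at 17 and 20 in Tg(hsp70l:sflt4) against 15 and 6 in WT, and *gzm3.3* at 13 and 11 against 25 and 18 in WT. The perforin gene *prf1.5* had 390 and 379 in Tg(hsp70l:sflt4) and 408 and 278 in WT. Tandem copies in these families may trade reads, which makes the values uncertain. *srgn*, a granule proteoglycan gene that neutrophils share, made up 96.6% of the list's summed reads and had 16418 and 18605 in Tg(hsp70l:sflt4) and 14421 and 18334 in WT.

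Transcription factors of lymphoid development gave 12 higher and 15 lower means among 27 tested of 42 symbols, with a median log2 difference of -0.07 and 0 called. With the libraries scaled to equal totals, which moved the median tested gene by 0.11 toward Tg(hsp70l:sflt4), the split was 14 higher and 13 lower. Without WT replicate 1 it was 16 and 11 with a median of 0.14, and without WT replicate 2 it was 8 and 19 with a median of -0.18. *satb1a*, a chromatin organiser gene known from mouse thymocytes, had 82 and 51 in Tg(hsp70l:sflt4) and 158 and 123 in WT (log2 difference -1.10, SE 0.34, limma adjusted p = 0.381). *runx1*, a blood stem cell and T cell factor, had 282 and 223 in Tg(hsp70l:sflt4) and 163 and 146 in WT (limma adjusted p = 0.392). *roraa*, a nuclear receptor gene, had 347 and 224 against 371 and 518 in WT, while *id2b*, a helix-loop-helix inhibitor gene, overlapped at 3576 and 3075 against 3982 and 2037. The myeloid and B cell factor gene *spi1b* was higher without overlap, at 5936 and 8077 in Tg(hsp70l:sflt4) and 4310 and 5591 in WT. *ikzf5*, another Ikaros family gene, had 323 and 333 in Tg(hsp70l:sflt4) and 360 and 365 in WT.

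Of the genes that join antigen receptor segments, 9 of 12 symbols were tested. These 9 are repair factors that all cells use, and the lymphocyte-specific recombinase genes were not analysed here. Means were higher for 8 and lower for 1, with a median log2 difference of 0.14 and 0 called. *xrcc4*, a ligase partner, had 1119 and 1608 in Tg(hsp70l:sflt4) and 829 and 799 in WT (limma adjusted p = 0.357). The Ku subunit genes had 1945 and 1555 against 1103 and 1491 in WT for *xrcc5*, and 1059 and 1032 against 905 and 966 in WT for *xrcc6*.

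Signal relay genes of antigen receptors, some of them shared with myeloid cells, mostly had higher means in Tg(hsp70l:sflt4). The list includes the identity genes *lck* and *zap70*, and it shares *ptprc* and *ptpn6* with the pan-leukocyte list given below. Of 30 tested relay genes, among 37 symbols, 21 had higher and 9 lower means, with a median log2 difference of 0.38. Limma called 0, and 9 higher and 1 lower had an unadjusted p under 0.05, against 5.57% and 5.45% of all genes tested. Without Tg(hsp70l:sflt4) replicate 2 the median was 0.34 and fewer higher genes had such a p. Without WT replicate 2 the median was 0.47 and more had one. *dok2*, an adaptor that dampens tyrosine kinase signaling, had 1719 and 1900 in Tg(hsp70l:sflt4) and 1046 and 1006 in WT (log2 difference 0.82, SE 0.14, limma adjusted p = 0.272). The adaptor genes *grap2a* and *grap2b*, whose mammalian counterpart links receptor scaffolds in T cells, had 2011 and 1701 against 999 and 1147 in WT and 2526 and 2739 against 1648 and 1495 in WT. The phosphatase gene *ptpn6*, widespread in blood cells, had 6410 and 9278 in Tg(hsp70l:sflt4) and 4462 and 5307 in WT. Whether the identity genes and the relay genes differ in their response was not tested.

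Cytokine receptor and homing genes had 20 higher and 7 lower means among 27 tested of 35 symbols, with a median log2 difference of 0.26 and 0 called. An unadjusted p under 0.05 was found for 7 higher genes and 1 lower gene, against 5.57% and 5.45% of all genes tested. The lower gene was *stat4*, for a transcription factor that signals from cytokine receptors, with 1781 and 1699 in Tg(hsp70l:sflt4) and 2290 and 2353 in WT. Without Tg(hsp70l:sflt4) replicate 2 the median of the list was 0.23 and fewer higher genes had an unadjusted p under 0.05. *itgb7*, the integrin subunit of gut-homing lymphocytes in mammals, had 1819 and 1922 in Tg(hsp70l:sflt4) and 1142 and 1199 in WT (log2 difference 0.68, SE 0.13, limma adjusted p = 0.283). *itgb2*, the leukocyte integrin subunit, is also on the pan-leukocyte list given below. It had 11058 and 12513 in Tg(hsp70l:sflt4) and 8022 and 6480 in WT. The cytokine receptor gene *il21r.1* had 2727 and 2729 against 1844 and 1764 in WT, and the selectin ligand gene *selplg* 1115 and 1262 against 786 and 798 in WT. In the whole list the groups were separate for 14 higher and 2 lower genes of 27, against 21.8% and 21.4% of all genes tested. *il7r*, the receptor chain on which lymphocyte survival depends in mammals, lay the other way with 32 and 25 in Tg(hsp70l:sflt4) and 40 and 105 in WT (limma adjusted p = 0.489). The kinase gene *jak1* overlapped at 7421 and 6560 in Tg(hsp70l:sflt4) and 7048 and 7524 in WT.

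**Figure D4:**
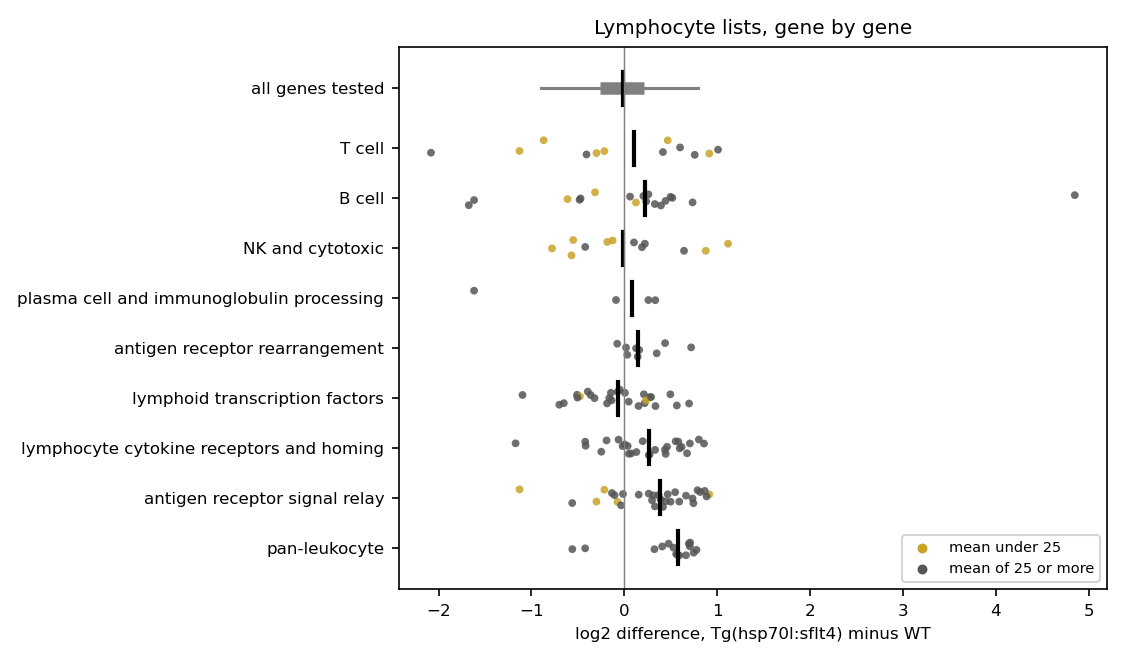
Log2 differences, Tg(hsp70l:sflt4) minus WT, of the tested genes of 8 lymphocyte lists and a pan-leukocyte list. Each dot is a gene, gold dots have a mean under 25, black ticks are medians, and the grey bar at the top gives the central ranges from the 5th to the 95th and the 25th to the 75th percentile of all genes tested. Medians run from -0.07 for lymphoid transcription factors to 0.38 for signal relay genes, and the pan-leukocyte median is 0.57.

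Over the 8 lymphocyte lists 127 different genes were tested, and limma and limma-voom each called 0. An unadjusted p under 0.05 was found for 23 higher and 6 lower genes (22.8% in all, against 11.0% of all genes tested). The higher genes include *ms4a17a.1*, which passed the filter only through the transgenic libraries. They also include *ptprc*, *ptpn6* and *itgb2*, which are on the pan-leukocyte list as well. By limma-voom 35 of the 127 genes had an unadjusted p under 0.05, against 2089 of all 17071 genes tested. That fit also scaled the libraries to equal totals, which moved the median tested gene by 0.11 toward Tg(hsp70l:sflt4), so weighting and scaling are not separated in it. Without Tg(hsp70l:sflt4) replicate 2 fewer higher genes of the signal relay and homing lists had such a p by limma, as given above. Values did not overlap between groups for 50 higher and 20 lower genes, or 55.1%, against 43.2% of all genes tested. The higher ones include *ms4a17a.1*, *zap70* and *nitr4a*, which passed the filter through the transgenic libraries. The lower ones include *sla2*, which passed it through the WT libraries. Since the lists were chosen with earlier results known, these shares are a description and no test of lymphocyte genes as a class.

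Most genes of leukocytes as a whole lay higher in Tg(hsp70l:sflt4) beside these values. Of 15 pan-leukocyte genes 13 had higher means, at a median log2 difference of 0.57 with 0 called by limma and 10 higher at an unadjusted p under 0.05, against 5.57% of all genes tested. Without Tg(hsp70l:sflt4) replicate 2 the median was 0.42 and the higher genes no longer had such a p. *ptprc*, which encodes the CD45 phosphatase of all leukocytes, had 6792 and 8594 in Tg(hsp70l:sflt4) and 5066 and 5070 in WT (log2 difference 0.59, SE 0.17, limma adjusted p = 0.357). *coro1a*, an actin-binding protein gene of leukocytes, had 9018 and 11983 in Tg(hsp70l:sflt4) and 5930 and 6466 in WT (limma adjusted p = 0.315). The 2 pan-leukocyte genes with lower means were *cd74a* and *cd74b*. They had 1028 and 1558 against 2123 and 1640 in WT, and 1020 and 1241 against 1654 and 1373 in WT. In the whole list the groups were separate for 12 higher and 2 lower genes of 15, against 21.8% and 21.4% of all genes tested. The summed macrophage markers, 21 rows of 22 symbols, were 110186 and 136845 in Tg(hsp70l:sflt4) and 74607 and 84630 in WT. Of these 21 genes 18 had higher and 3 lower means. *mpeg1.1* overlapped at 4320 and 5642 in Tg(hsp70l:sflt4) and 5184 and 4611 in WT. *csf1ra* was lower without overlap, at 1165 and 829 against 2129 and 1179 in WT. The summed neutrophil markers overlapped at 40854 and 52079 in Tg(hsp70l:sflt4) and 34823 and 44353 in WT. Heart muscle markers lay mostly the other way. The summed cardiomyocyte markers, 13 rows of 18 symbols, were 1292313 and 1369434 in Tg(hsp70l:sflt4) and 1814602 and 1584611 in WT, without overlap. Of these 13 genes 4 had higher means, and *myh6* was higher without overlap, at 12678 and 7074 in Tg(hsp70l:sflt4) and 5811 and 5561 in WT. Endothelial means were lower for 17 of 22 genes, at a median log2 difference of -0.14. With equal totals 13 were lower and 9 higher, and without WT replicate 1 the median was -0.0025. Mitochondrial genes held 14.4% and 17.15% of the normalized reads in Tg(hsp70l:sflt4) and 19.5% and 18.8% in WT. No marker of these lists was at 0 in a library, and their part in the values of the lymphocyte lists was not tested.

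Set against *ptprc* in the same library, a measure chosen after the values were seen and given without a test, the 5 low-count identity genes together had 11.2 and 10.9 normalized reads per 1000 of *ptprc* in Tg(hsp70l:sflt4), and 16.6 and 15.2 in WT. *ikzf1* had 31.2 and 35.0 per 1000 in Tg(hsp70l:sflt4) and 45.2 and 54.4 in WT. Both sets of values were lower in the transgenic libraries without overlap. Gene by gene, *lck*, *cd79a* and *ikzf1* were lower without overlap, *zap70* was higher at 2.21 and 2.44 against 1.97 and 1.58 per 1000 in WT, and *cd4-1* and *cd79b* overlapped. Since *ptprc* itself was higher in both transgenic libraries, 71.9% of all genes tested were lower without overlap on this measure and 2.08% were higher. The 3 of 6 identity genes that were lower thus do not exceed the share of genes in general.

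**Figure D5:**
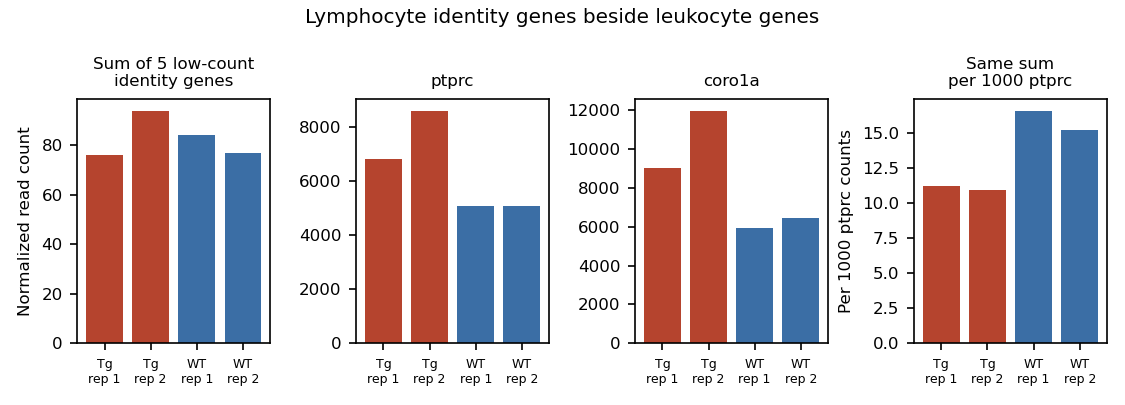
Summed normalized read counts of *lck*, *zap70*, *cd4-1*, *cd79a* and *cd79b*, counts of *ptprc* and *coro1a*, and the same sum per 1000 *ptprc* counts, with 1 bar per library and Tg standing for Tg(hsp70l:sflt4). The sum overlaps between groups (76 and 94 against 84 and 77), *ptprc* and *coro1a* are higher in both Tg libraries, and the ratio is lower in both (11.2 and 10.9 against 16.6 and 15.2).

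Genes most like *lck* and *cd79a* were sought over the 4 libraries by the root mean square difference of log2 values, each gene centred on its own mean, among named genes with a mean of at least 50. For *lck* the nearest were *hmces*, *gpm6ab* and *lrp1ab*, at 0.02 to 0.04 log2 units. *hmces* had 104 and 119 in Tg(hsp70l:sflt4) and 178 and 95 in WT, the same order of libraries as *lck*. For *cd79a* the nearest were *nars*, *slc25a28* and *tmem184c*, at 0.01 to 0.02 log2 units. *nars* had 4685 and 4936 in Tg(hsp70l:sflt4) and 5097 and 6779 in WT. With 4 libraries and few reads in *lck* and *cd79a*, such likeness describes these libraries alone.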

How the data were processed

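RNA-seq libraries of 2 Tg(hsp70l:sflt4) and 2 WT pools of ventricles were analysed from 1 gene table, with 500 ng of total RNA per library and a stranded mRNA kit per the labels' protocols. The values deposited by the authors are a score: reads per gene, scaled between libraries by size factors and then rounded, as the pattern of whole numbers in the values shows. Per the submitters' processing notes the tools were DESeq2 1.18.1, featureCounts 1.6.3, Subread, FastQC and Trimmomatic 0.38, listed without roles, and the build was danRer11. The aligner and the strand setting of counting are not stated in the sources used here. The lowest gene mean in the table was 4.25.

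Size factors were estimated from gaps and doublings in the frequency of whole numbers, at 1.10 and 0.885 for Tg(hsp70l:sflt4) replicates 1 and 2 and 1.02 and 1.01 for WT replicates 1 and 2. Rounding merges neighbouring counts, so no count test was run. Limma 3.58.1 in R 4.3.3, with trend and robust moderation, was fitted to log2(value + 1) for 17071 genes (minimum mean 10), with Benjamini-Hochberg adjustment over all of them and a threshold of 0.05. Fold changes on this scale understate those of low genes. Intervals are at 95%; Poisson and exact binomial intervals cover counting error only, since reads are not independent molecules. The limma p-values rest on the spread between these pools, moderated toward that of all genes tested. The labels do not say how pools were formed. In simulated data, limma called 99 of 100 genes changed 4-fold, 100 of 100 changed 16-fold and 11 of 16871 unchanged ones. All changed genes had higher means than the low-count identity genes, so the simulation does not give the power for those. Every simulated gene had the same spread beyond counting error, and no simulated library stood apart. The real libraries were less even, so the simulation does not give the power of the real test either. Alternatives covered pseudocount, filter, scaling, weighting, moderation, the replicate block and left-out libraries. The weighting alternative, limma-voom, also scaled the libraries to equal totals.

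The identity genes and the gene lists were chosen with earlier results of these data known. Of 370 list symbols 254 had a row, 8 of them through reference names. Named genes are all identity genes, the 3 with the smallest p and the 2 most abundant of each lymphocyte list, the 3 nearest to *lck* and to *cd79a*, and *ptprc*, *coro1a*, *myl7* and *flt4*. *itk*, *lcp2b*, *cd3eap*, *sla2*, *blk*, *gzm3*, *ikzf5*, *il7r*, *stat4*, *hsp70l* and the immunoglobulin rows were added after their values were seen. So were *cd74a*, *cd74b*, *mpeg1.1*, *csf1ra* and *myh6*. No row of the table overlapped an identity gene's coordinates on either strand.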

Additional observations from a re-analysis of the deposited data

How the results depend on the processing

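None of the 6 identity genes was called under any of the 14 alternatives, which covered pseudocounts of 0.5 and 5, a mean of at least 50 or no filter, upper-quartile, trimmed-mean and equal-total scaling, limma-voom, no robust moderation, the replicate block and each library left out. Their smallest adjusted p over these fits was 0.4685. At a mean of at least 50 only *ikzf1* was left to test. Over all genes, 0 were called in every fit except that leaving out 1 library each gave 0 to 217 calls, with 217 without WT replicate 1 and 73 without WT replicate 2. Leaving out 1 library each moved the median difference of the identity genes over -0.10 to 0.23. With a library left out its group has 1 library, which is assumed to vary like the other group. Shares of all genes at an unadjusted p under 0.05 are given only for fits with all 4 libraries. Changes of list counts at that p with a library left out therefore have no background beside them. Signs of the identity genes turned only in those fits: *lck* was 0.26 and *cd79b* -0.37 without WT replicate 1 (ranges -0.69 to 0.26 and -0.37 to 0.63), *cd4-1* -0.076 without WT replicate 2 (range -0.076 to 1.01), and *ikzf1* -0.24 without Tg(hsp70l:sflt4) replicate 2 and -0.13 without WT replicate 1. The log2 ratio of the summed T cell list was 0.28 with its identity genes alone, against 0.48 in full. That of the B cell list, 0.11 in full, was 0.22 with equal totals, 0.22 without *cd81a* and -0.18 with its identity genes alone; these choices of genes were made after seeing the data. The replicate block called 0 genes; same-numbered libraries shared a correlation of 0.14 across genes, and with 2 pairs the numbers do not establish pairing. The edgeR test, planned only for the case of raw counts, was not run, because whole reads could not be recovered over the whole table. Low read numbers limit the precision for 5 of the 6 genes.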
